A study of Arabidopsis thaliana with 6 samples.

Results

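JAGGED (JAG), a zinc finger protein that promotes growth of lateral organs, was mapped on the Arabidopsis thaliana genome by chromatin immunoprecipitation and sequencing, and 811 genomic regions recurred in exactly 2 of the 3 replicate peak lists. All peaks of the 3 lists that overlapped by at least 1 bp were merged, which gave 3683 regions, and the 811 were selected on the number of lists with a peak. They made up 22% of all merged regions, beside 869 regions in 3 lists and 2003 in 1 list. Presence in a list chose these regions, and the scores come from the same lists, so both are given below as descriptions with no test.

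The study had 3 JAG-GFP samples, jag-2 mutant plants that carry the transgene JAG:JAG-GFP, and 3 wild-type samples of the Landsberg erecta strain (L-er), which lack the tag. The fusion is expressed from JAG's own genomic sequence, the tissue was inflorescence tips with unopened buds only, and DNA was pulled down through the green fluorescent protein tag. Each sample was a mass of apices and so mixes meristems and organs of many stages. The labels give no age, and do not say whether same-numbered samples came from separate sets of plants, so differences between the lists may be technical. The sources used here do not state which wild-type sample each list was set against. The list of replicate 3 stops partway along chromosome 1, and the stretch past its last peak there, with the JAG locus itself, was left out of all 3 lists. Positions are those of the lists, in the build TAIR10 that the submitters' processing notes name.

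JAG belongs to the C2H2 zinc finger proteins. Such proteins can carry a short repression motif that recruits TOPLESS-type co-repressors, and JAG is known for keeping cells of young sepals, petals and leaves in growth and division, partly through genes of cyclin-dependent kinase inhibitors. A chromatin peak marks where tagged protein was found near DNA in the whole tissue. It does not by itself show that the neighbouring gene responds.

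Regions held by replicates 1 and 3 were the most numerous, at 334, followed by 281 for replicates 2 and 3 and 196 for replicates 1 and 2. The lists used had 2376, 1960 and 2127 peaks in replicates 1, 2 and 3. Of these peaks 22.8%, 24.7% and 29.1% lay in a region of exactly 2 lists. Replicate 3 thus gave the largest share of its peaks to these regions, although it did not have the most peaks. Seen from the list without a peak, 81.6% of the 1065 regions held by replicates 1 and 2 were also in replicate 3 (95% Wilson interval 79.2 to 83.8%). The same share was 75.6% for replicate 1 among 1150 regions of replicates 2 and 3 (73.0 to 78%) and 72.2% for replicate 2 among 1203 regions of replicates 1 and 3 (69.6 to 74.7%). These intervals cover counting error only. Among the 5 chromosomes, regions of exactly 2 lists made up between 18.8% of all regions on chromosome 2 (16.0 to 22.1%) and 24.3% on chromosome 3 (21.5 to 27.3%), and these intervals overlap.

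Most of these regions scored in the lower and middle part of both lists. Scores were assigned by the authors on a scale that is not stated, so each was also expressed as its percentile within its list, where 100 is the highest. The mean percentile over the 2 lists had a median of 41.5, and quartiles of 28.4 and 56.3. It was 25.5 for regions in 1 list and 71.2 for regions in 3 lists. Of the 811 regions, 324 scored below the 50th percentile in both lists, 165 above it in both, and 322 fell on different sides. None was above the 90th percentile in both lists, and 22 were above the 75th in both. Median scores were 1.98 and 2.00 for replicates 1 and 2 where those lists shared the region, 2.03 and 2.05 for replicates 1 and 3, and 2.08 in each list for replicates 2 and 3. The medians of the whole lists were 2.04, 2.08 and 2.12 in replicates 1, 2 and 3, and their lowest scores 1.86, 1.89 and 1.87. By rank, the median peak of these regions lay between the 38.3rd and 51.1st percentiles of its list, depending on the pair.

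**Figure D1:**
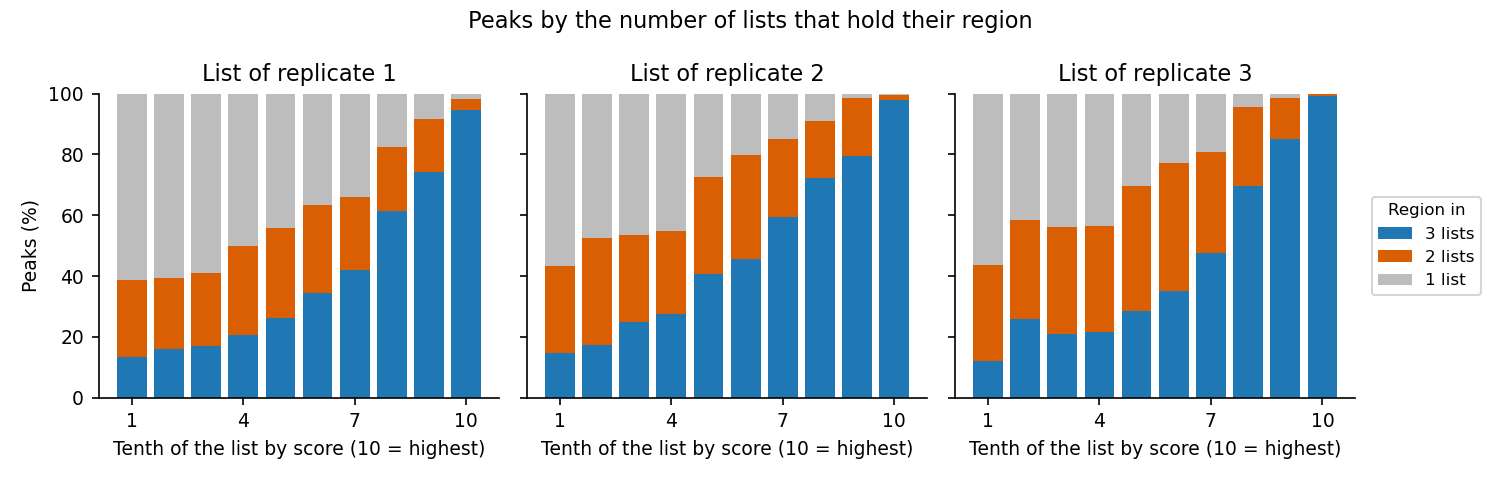
Share of the peaks of each list (y axis, %) whose region is in 1, 2 or 3 lists, in 10 score bands from the lowest (1) to the highest (10) of the list (x axis). Tied scores make the bars rest on between 99 and 362 peaks. Peaks in exactly 2 lists take between 0.922% (highest band of replicate 3) and 42.1% (band 6 of replicate 3), and are scarcest in the highest band of each list.

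The share of peaks in exactly 2 lists was highest in the middle bands in replicates 1 and 3 and in band 2 in replicate 2, at 35.0%, and it dropped steeply toward the top. In replicate 3 it was 31.7% in the lowest band, 42.1% in band 6 and 0.922% in the highest. In replicate 2 it was 28.6%, 34.1% and 1.52% in the same bands. In replicate 1 it was 25.4%, 28.9% and 3.80%. At the bottom most peaks were in a single list, and at the top nearly all were in 3.

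**Figure D2:**
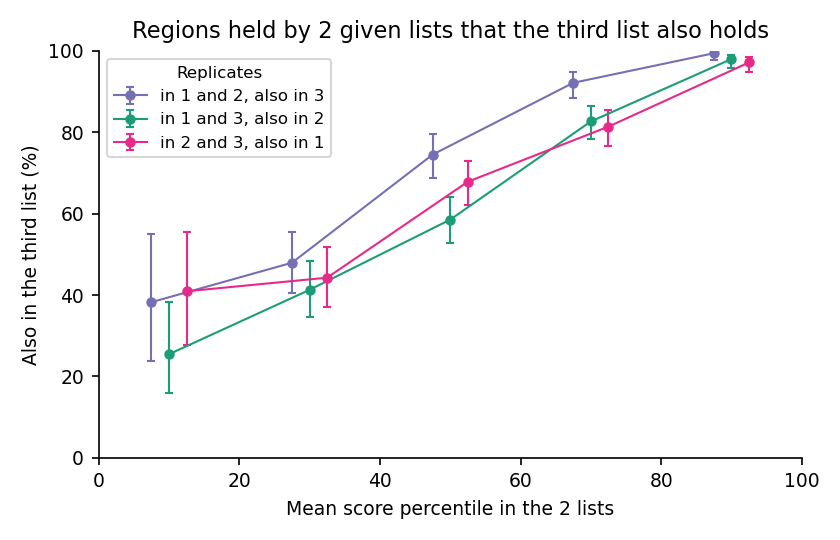
Regions held by 2 given lists, by their mean score percentile in those lists (x axis, bands of 20), and the share that the third list also holds (y axis, %, with 95% Wilson intervals). Points of the 3 pairs are shifted sideways so that they can be told apart. The share runs from 25.5% to 40.9% in the lowest band and from 97.1% to 99.4% in the highest.

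Only 2, 7 and 10 regions with a mean percentile above 80 were missing from the remaining list, for replicates 1 and 2, 1 and 3, and 2 and 3 respectively. In the band between 60 and 80, replicate 3 held 92.1% of the regions of replicates 1 and 2 (88.5 to 94.7%), whereas replicate 2 held 82.6% of those of replicates 1 and 3 (78.2 to 86.3%) and replicate 1 held 81.4% of those of replicates 2 and 3 (76.5 to 85.4%). In this band replicate 3 thus missed a smaller share than the other lists did, and its interval does not overlap theirs. In each of the other bands the interval for replicate 3 overlaps that for replicate 1. Between 40 and 60 it lies above that for replicate 2, with 74.5% (68.7 to 79.6%) against 58.5% (52.7 to 64.1%). In the remaining bands the intervals for replicates 3 and 2 overlap. Above 80 the intervals were 97.8 to 99.8% for replicate 3, 95.8 to 99.0% for replicate 2 and 94.8 to 98.4% for replicate 1. In the lowest band replicate 3 held 38.2% and replicate 1 held 40.9%. The differences were not tested, since regions of one list are not replicates.

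**Figure D3:**
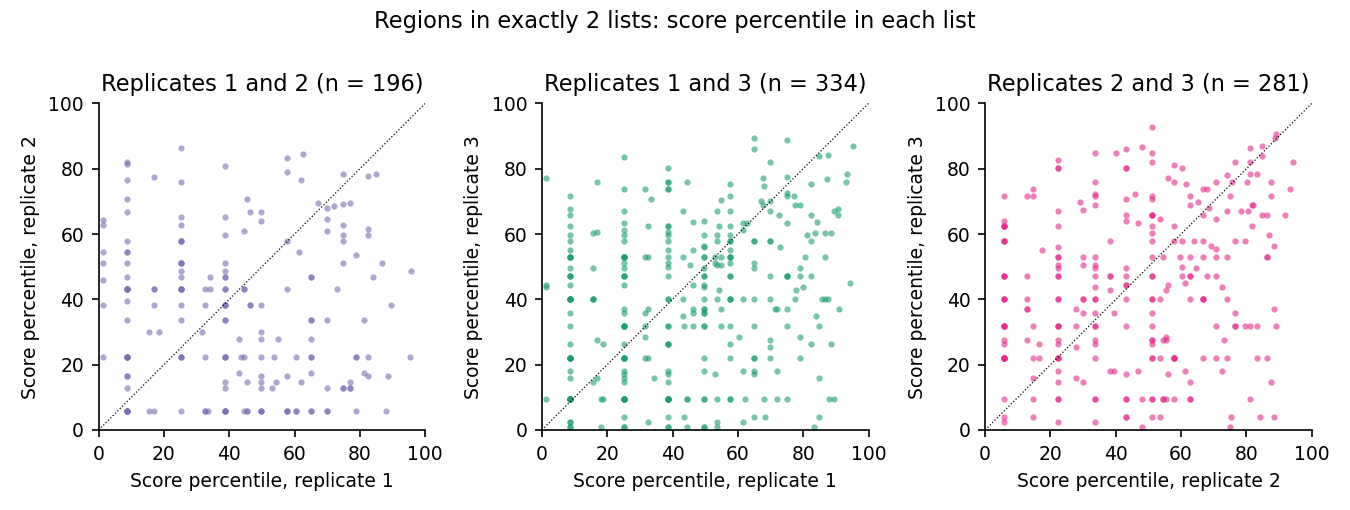
Each region in exactly 2 lists is a point at its score percentile in each list (axes, percentile within the list), with a panel for each pair of lists and a dotted line of equality. Points fill the lower left and middle of each panel and the upper right corner is almost empty. Rows and columns of points come from tied scores.

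The scores of the 2 lists were only loosely related across these regions. Spearman's rho was -0.06 over the 196 regions of replicates 1 and 2, 0.25 over the 334 of replicates 1 and 3, and 0.22 over the 281 of replicates 2 and 3. The points share their lists and lack the high-scoring regions that all 3 lists hold, so the values describe these regions only. The percentiles of a region differed by a median of 21.4 between its lists and by more than 50 in 96 regions. The largest gap was at HUB2 (AT1G55250), which encodes a histone H2B ubiquitin ligase. Its region (chromosome 1, 20611878 to 20613752) scored 2.72 in replicate 2 and 1.89 in replicate 3, or the 88.4th and 3.90th percentiles.

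The peaks of the 2 lists in each region overlap by the rule that chose the regions, so the extent of overlap is a description. They overlapped by a median of 716 bp, and the merged regions were a median of 1289 bp wide. Regions in 1 list were a median of 800 bp wide and regions in 3 lists 1750 bp. A merged region spans all its peaks, so its width tends to grow with the number of lists by construction. Summits, the positions of each peak's maximum, lay a median of 127.5 bp apart for replicates 1 and 2, 97.5 bp for replicates 1 and 3 and 64 bp for replicates 2 and 3. In regions of 3 lists the same pairs lay 82, 71 and 52 bp apart. Replicates 2 and 3 were thus the closest pair and replicates 1 and 2 the farthest in both sets. Summits were within 100 bp in 432 regions and more than 500 bp apart in 105.

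Few regions missed the remaining list by a narrow gap. The nearest peak of that list lay a median of 9953 bp away. It was within 300 bp in 20 regions (2.47%) and within 1000 bp in 87 (10.7%). Those 87 were 34 of the 281 regions without replicate 1, 29 of the 334 without replicate 2 and 24 of the 196 without replicate 3. A region in 3 lists lay within 1000 bp of 45 regions (5.55%, 95% Wilson interval 4.17 to 7.34%). Regions in 1 list had such a neighbour in 4.74% of cases (3.90 to 5.76%), and regions in 3 lists had another of their kind in 8.75% (7.04 to 10.8%). The interval for regions in exactly 2 lists overlaps both of the others, and most had no region in 3 lists within 1000 bp.

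At the edge of the rule, the member closest to a peak of the remaining list lay between 1000 and 3000 bp from SPL14 (AT1G20980), a gene of an SBP-box transcription factor (chromosome 1, 7322030 to 7323579). It scored 2.64 in replicate 1 and 2.33 in replicate 3, and a peak of replicate 2 that scored 2.27 lay 27 bp away. The next were near AT5G58520, at 28 bp, and AT3G60520, at 105 bp. Just inside the rule by overlap, the peaks of replicates 2 and 3 in AT1G29500 shared 9 bp, those of replicates 1 and 2 in AT1G01335 shared 23 bp, and those of replicates 2 and 3 nearest AT4G03830 shared 43 bp. Among regions in 3 lists, the smallest overlap that joined the remaining peak was 215 bp, near AT2G01008. That region was itself only 215 bp wide, so the overlap spanned all of it. The next smallest was 239 bp, in RABA4a. The lowest-scoring members lay near or in GONST2, PRR9, AT2G25430, AT4G33040 and RAB1A, with mean percentiles from 4.13 to 5.38.

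The highest-scoring member stood beside a microRNA gene. It lay on chromosome 3 from 8109167 to 8109846 and scored 2.91 in replicate 1 and 2.85 in replicate 3, where it was 116th and 274th in the lists, with no peak in replicate 2. Its nearest protein-coding gene was APS1 (AT3G22890), an enzyme of sulfate assimilation, farther than 3000 bp away. MIR167a (AT3G22886), whose product targets the auxin response factor genes ARF6 and ARF8, lay between 1000 and 3000 bp away. The next 2 members were held by replicates 2 and 3. The first of them, outside AT1G30600 and within 1000 bp of it (chromosome 1, 10844818 to 10845882), scored 2.75 and 3.1. The other, between 1000 and 3000 bp from AT5G54150 (chromosome 5, 21979077 to 21980333), scored 2.73 and 3.00, with OMT1 (AT5G54160), a methyltransferase of phenolic compounds, in the window. All 3 of these scored at or above the 87.0th percentile in both lists that held them.

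The 4th member, nearest VEL1 (AT4G30200), a plant homeodomain finger gene of the vernalization family, scored 3.07 in replicate 2 and 2.65 in replicate 3 (chromosome 4, 14781739 to 14782724). The 5th, nearest AT4G36860, scored 2.80 in replicate 1 and 2.55 in replicate 3 (chromosome 4, 17363466 to 17366075). Neither had a protein-coding gene within 3000 bp. The summit of the 6th was inside XTH33 (AT1G10550), a gene of a xyloglucan-modifying cell wall enzyme, with scores of 2.58 in replicate 2 and 2.85 in replicate 3. The nearest genes of the 7th to 12th members were OZF2, CIPK15, AT3G21570, LHCB4.3, AT2G34340 and scpl25, with mean percentiles from 83.6 to 85.8.

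None of these 12 was held by replicates 1 and 2. The highest members of that pair were inside PIP2;5 (AT3G54820), a plasma membrane water channel gene, with scores of 2.42 in both lists, and near INT1 (AT2G43330), an inositol transporter gene, with 2.37 in replicate 1 and 2.40 in replicate 2. LPAT5 (AT3G18850), an acyltransferase gene of glycerolipid synthesis, came next, with 2.26 and 2.42. The mean percentiles of these 3 regions ran from 76.6 to 81.6, below all 12 regions above, although the highest single score of the pair in replicate 1 was 2.92.

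Summits of the regions lay mostly outside genes. Of 811, 398 (49.1%, Wilson interval at 95% of 45.6 to 52.5%) lay beside a protein-coding gene at up to 1000 bp, 269 (33.2%, 30.0 to 36.5%) were inside a gene, 113 (13.9%, 11.7 to 16.5%) were between 1000 and 3000 bp away and 31 (3.82%, 2.71 to 5.37%) were farther. The pairs of lists resembled each other, with 32.7%, 32.3% and 34.5% inside genes for replicates 1 and 2, 1 and 3, and 2 and 3.

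**Figure D4:**
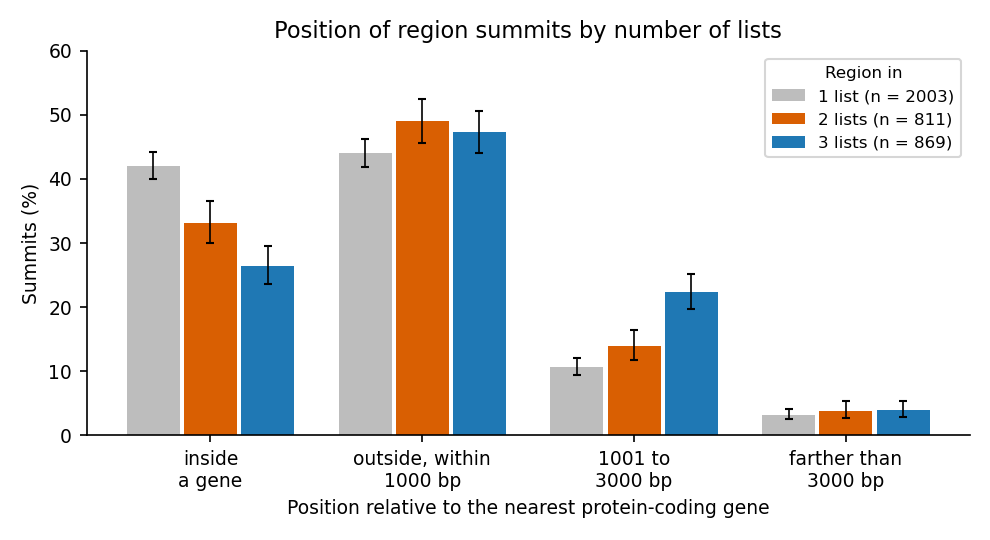
Share of region summits (y axis, %, with 95% Wilson intervals that cover counting error only) by position relative to the nearest protein-coding gene (x axis), for regions in 1, 2 and 3 lists. Gene bodies hold 42.1%, 33.2% and 26.5% in that order, and places between 1000 and 3000 bp away hold 10.7%, 13.9% and 22.3%.

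The share inside genes fell between that of regions in 1 list, 42.1% (39.9 to 44.3%), and that of regions in 3 lists, 26.5% (23.6 to 29.5%). These intervals do not overlap. The share between 1000 and 3000 bp from a gene ran the other way, from 10.7% (9.41 to 12.1%) to 22.3% (19.7 to 25.2%), with overlapping intervals for 1 and 2 lists. Score moved with the number of lists, so the shares were also taken within bands of the mean percentile. Between the 25th and 50th percentiles gene bodies held 43.6% of regions in 1 list (40.1 to 47.1%), 34.8% of those in 2 (30.1 to 39.7%) and 27.3% of those in 3 (20.6 to 35.3%). Between the 50th and 75th they held 39.8% (34.9 to 44.9%), 30.1% (24.7 to 36.1%) and 26.6% (22.2 to 31.6%). Above the 75th percentile they held 28.0% of 50 regions in 1 list (17.5 to 41.7%), 28.2% of 39 in 2 (16.5 to 43.8%) and 25.8% of 380 in 3 (21.6 to 30.4%). Below the 25th they held 42.6% of 834 in 1 list (39.3 to 45.9%), 35.5% of 152 in 2 (28.4 to 43.4%) and 5 of 16 in 3. The share in 1 list was thus above that in 2 lists in the 3 lower bands and not in the highest. The intervals for 1 and 2 lists overlap in every band except that between the 25th and 50th percentiles. The intervals for 2 and 3 lists overlap in each of the 3 bands above the 25th percentile. The differences were not tested, because regions are not replicates of a condition. With only the upper 50% of each list, merged anew, the share inside genes was 26.9% of 402 regions. That is a different set, since only 173 of the 811 stayed in exactly 2 lists.

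A summit of a region in exactly 2 lists lay in or within 3000 bp of 1609 of 25680 tested protein-coding genes, which is 6.27%. Regions in 3 lists reached nearly as many, 1602 (6.24%). Both kinds of region stood near 125 genes, 7.77% of the first set and 7.80% of the other, shares close to the 6.24% and 6.27% over all tested genes. With a window of 1000 bp the count was 888 genes (3.46%). More than 1 region in exactly 2 lists stood near 88 genes, and at 56 of them these regions together held peaks of all 3 lists, at different places. Regions from any 2 different pairs of lists cover all 3 lists by definition, so the 56 are only genes whose regions came from different pairs. Over all members the pairs 1 and 2, 1 and 3, and 2 and 3 made up 24.2%, 41.2% and 34.6%. TAR2, WOX1 and SOC1, described below, were among the 56. KAN3, AT5G42090, BG_PPAP and AT5G65650 had 3 regions each.

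Genes of development were examined through 16 lists of 272 loci, of which 251 could be tested. A region in exactly 2 lists was found near 43 of them (17.1%), against 6.27% of all tested genes, and near 39 of the 214 genes left when the photosynthesis, seed storage and housekeeping lists were set aside (18.2%). Regions in 3 lists stood near more of the same genes, 59 of 251 (23.5%) and 56 of the 214 (26.2%), against 6.24% of all tested genes. The raised share is therefore not particular to regions in exactly 2 lists. These 43 genes had no especially high scores: the mean percentile of their best region ran from 9.34 to 79.5, with a median of 39.1. The best region of the gene was held by replicates 2 and 3 at 21 genes, by replicates 1 and 3 at 17, and by replicates 1 and 2 at 5. Over all 811 members these pairs made up 34.6%, 41.2% and 24.2%. The 43 genes rest on 42 distinct regions, since YUC1 and LUG share one. At 29 of the 43 the gene was also the nearest to the summit, and 37 had no region in 3 lists. The lists were drawn up with earlier results of these data known, so the shares are a description.

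**Figure D5:**
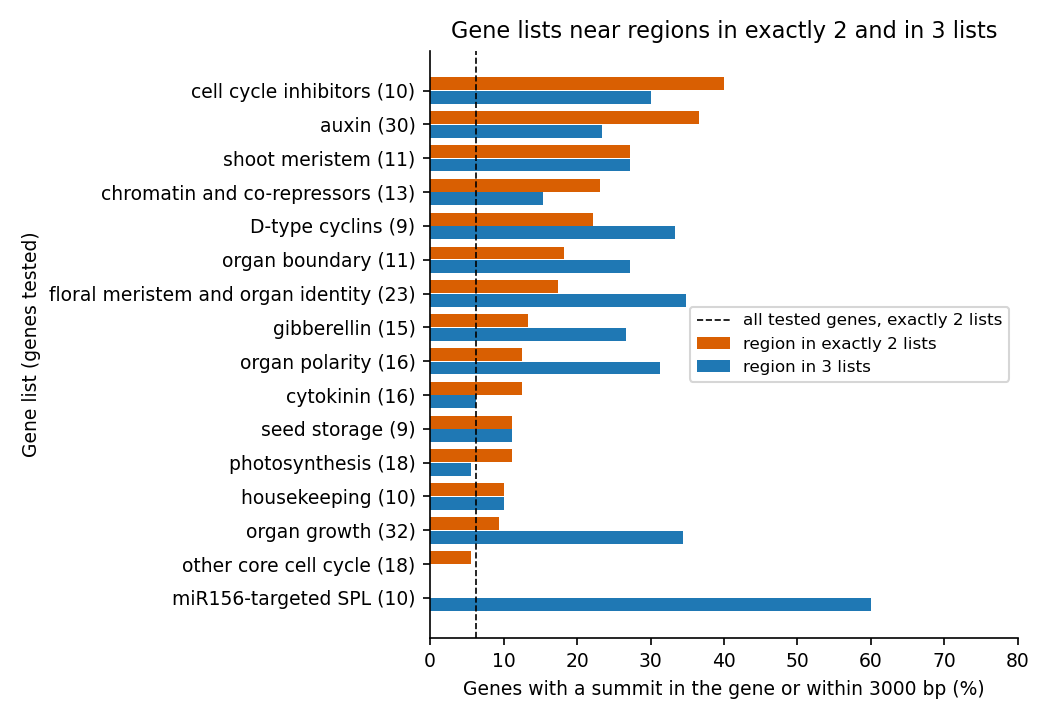
Percentage of the tested genes of each list (x axis) that hold a summit or have it within 3000 bp, for regions in exactly 2 lists and in 3 lists; the number of genes tested stands after each list's name (y axis). The dashed line is the 6.27% of all tested genes near a region in exactly 2 lists. Cell cycle inhibitors (4 of 10) and auxin genes (36.7%) lie farthest to its right, and the SPL genes targeted by miR156 have 0%.

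Auxin genes supplied the most members, 11 of 30, and included synthesis, inactivation, repression and response. Auxin is a hormone whose local maxima place new organs. It is made from tryptophan by aminotransferases such as TAR2 and then by YUC enzymes, is bound to amino acids by GH3 enzymes, and acts when Aux/IAA repressors are degraded and response factors (ARF) are freed. Of the 30 genes, 7 had a region in 3 lists, and none of the 11 was among them. Over all tested genes, 7.77% of those near a region in exactly 2 lists also had one in 3 lists, so a count of 0 among 11 is near that background.

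TAR2 (AT4G24670) had 2 regions. The first lay within 1000 bp outside the gene (chromosome 4, 12725629 to 12728385) and scored 2.37 in replicate 1 and 2.30 in replicate 3. The other was inside the gene (12729080 to 12730090) and scored 2.28 in replicate 2 and 2.15 in replicate 3. Replicate 3 therefore had a peak at each place, while replicates 1 and 2 had theirs at different places. YUC4 (AT5G11320), between 1000 and 3000 bp from its region (chromosome 5, 3609829 to 3610439), scored 2.33 in replicate 2 and 2.15 in replicate 3. YUC1 (AT4G32540) scored 1.94 and 1.9 in the same lists, low in both, and its region is also in the window of LUG (AT4G32551), which encodes a floral co-repressor.

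Of the Aux/IAA repressors, IAA7 (AT3G23050) scored 1.98 in replicate 1 and 2.45 in replicate 3, with its summit in the gene (chromosome 3, 8196735 to 8197692). IAA2 (AT3G23030) scored 1.96 in replicate 1 and 1.89 in replicate 2, also in the gene. IAA19 and IAA17 had regions between 1000 and 3000 bp away with mean percentiles of 49.2 and 39.1. Among these repressors IAA7 thus had the highest-scoring region. The conjugating enzyme genes GH3.2 (AT4G37390) and GH3.6 (AT5G54510) had mean percentiles of 55.0 and 35.5. ARF6 (AT1G30330), an activating response factor, scored 1.93 in replicate 1 and 1.9 in replicate 3 within 1000 bp. ARF7 (AT5G20730) scored 1.93 in replicate 1 and 2.08 in replicate 2. The region of ARF6 was low in both lists, while that of its microRNA gene MIR167a was the highest member of all.

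Among inhibitors of cyclin-dependent kinases, which restrain division, 4 of 10 had a region, against 6.27% of all tested genes, and all 4 were KRP genes. Regions in 3 lists stood near 3 of the 10, also KRP genes (KRP2, KRP4 and KRP7). KRP7 (AT1G49620) scored 1.98 in replicate 1 and 2.45 in replicate 3 within 1000 bp (chromosome 1, 18366877 to 18367764), where another gene, PREP2, was nearer. It also has a region in 3 lists. KRP6 (AT3G19150) scored 1.88 in replicate 1 and 2.33 in replicate 3, KRP1 (AT2G23430) 1.93 in replicate 1 and 2.14 in replicate 3, and KRP3 (AT5G48820) 1.89 in replicate 2 and 2.1 in replicate 3, all with the summit in the gene. Each of the 4 genes with a region in exactly 2 lists had its higher percentile in replicate 3, and its percentile in the other list lay between 5.83 and 38.7. Over all members replicate 3 had the higher percentile in 142 of the 334 regions of replicates 1 and 3. It did so in 136 of the 281 regions of replicates 2 and 3. D-type cyclins, activators of the kinases that start division, had 2 of 9, against 6.27% of all tested genes. For regions in 3 lists it was 3 of 9. CYCD3;2 (AT5G67260) scored 1.98 in replicate 2 and 2.35 in replicate 3, and CYCD3;3 (AT3G50070) scored 1.93 in replicate 1 and 1.92 in replicate 3. Both also have a region in 3 lists. With an overlap of 50% of the shorter peak required, 1 of the 9 had a region. Other core cell cycle genes had 1 of 18 (5.56%), near the 6.27% over all tested genes. It was KNOLLE, a gene of cell plate fusion in cytokinesis.

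Of the floral identity genes 4 of 23 had a region (17.4%), against 6.27% of all tested genes. For regions in 3 lists it was 8 of 23. AP3 (AT3G54340), a MADS-box gene that specifies petals and stamens, had its summit in the gene (chromosome 3, 20120737 to 20122539) and scored 2.25 in replicate 2 and 2.34 in replicate 3. A further region within 3000 bp (20115481 to 20118032), whose summit is inside WRI1, scored 2.04 in replicate 1 and 2.07 in replicate 3. PI (AT5G20240), the partner of AP3, had 1.93 in replicate 1 and 2.00 in replicate 3 at between 1000 and 3000 bp, where another gene was nearer. AP3 thus scored higher than PI in the list both share. SHP2 (AT2G42830), a carpel gene, scored 2.48 in replicate 2 and 2.00 in replicate 3, and PDF1 was nearer. SOC1 (AT2G45660), which promotes flowering, had 2 regions, with 2.31 in replicate 1 and 1.89 in replicate 2 at the better (chromosome 2, 18810664 to 18812390), as well as a region in 3 lists.

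Shoot meristem genes had 3 of 11, against 6.27% of all tested genes, and regions in 3 lists also stood near 3 of the 11. KNAT6 (AT1G23380), a homeobox gene of the meristem and organ boundary, had its summit in the gene (chromosome 1, 8297563 to 8298697) and scored 2.08 in replicate 2 and 3.3 in replicate 3, the highest score of any member in replicate 3. WOX1 (AT3G18010), a homeobox gene of lateral organ margins, had 2 neighbouring regions within 1000 bp. The first (chromosome 3, 6159431 to 6160239) scored 2.20 in replicate 1 and 1.98 in replicate 2, and the other (6160387 to 6162161) scored 2.23 in replicate 2 and 2.20 in replicate 3. When gaps of up to 300 bp were joined, WOX1 no longer had a region of exactly 2 lists. CRN (AT5G13290), a pseudokinase gene of the CLAVATA pathway, had 2.18 in replicate 2 and 1.91 in replicate 3.

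Organ growth genes had 3 of 32 (9.38%), near the 6.27% over all tested genes. Regions in 3 lists stood near 11 of the 32. GRF3 (AT2G36400), a growth-regulating transcription factor gene, had the highest mean percentile of all list genes, 79.5. Its region (chromosome 2, 15274566 to 15275427) lay between 1000 and 3000 bp away and scored 2.67 in replicate 2 and 2.40 in replicate 3, and the nearest peak of replicate 1 was 332 bp away. TCP3 (AT1G53230) and TCP5 (AT5G60970), genes that restrain proliferation in leaves, scored 2.43 in replicate 1 and 2.05 in replicate 3, and 2.28 in replicate 2 and 2.1 in replicate 3.

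Organ polarity genes had 2 of 16 (12.5%) and organ boundary genes 2 of 11 (18.2%), against 6.27% of all tested genes. For regions in 3 lists the counts were 5 of 16 and 3 of 11. KAN3 (AT4G17695), of the KANADI family of the lower organ side, had 3 regions, each held by replicates 1 and 3 (between 9847604 and 9851326 on chromosome 4). They scored 1.93, 1.88 and 1.93 in replicate 1 and 2.02, 2.15 and 2.15 in replicate 3. The nearest peak of replicate 2 lay 8570 bp or more from each. YAB2, a further polarity gene, had a mean percentile of 23.6. At the boundary, PTL (AT5G03680), which limits growth between sepals, scored 1.98 in replicate 2 and 2.40 in replicate 3 (chromosome 5, 956974 to 958053) and also has a region in 3 lists. LSH3 (AT2G31160) had 2 regions, the better inside the gene with 2.28 in replicate 2 and 2.00 in replicate 3.

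Gibberellin genes had 2 of 15 (13.3%), both receptors, against 6.27% of all tested genes. For regions in 3 lists it was 4 of 15. GID1A (AT3G05120) scored 2.31 in replicate 1 and 2.11 in replicate 3, and GID1B (AT3G63010) had 2 regions, the better with 2.04 in replicate 1 and 1.91 in replicate 2. Cytokinin genes had 2 of 16 (12.5%), the response regulators ARR5 and ARR9, with mean percentiles of 24.9 and 16.1. For regions in 3 lists it was 1 of 16. Chromatin and co-repressor genes had 3 of 13, TPL, TPR2 and LUG, with mean percentiles of 42.0, 9.34 and 15.9. For regions in 3 lists it was 2 of 13. The TOPLESS-type genes TPL and TPR2 encode the partners that EAR-motif repressors recruit. The 10 tested SPL genes targeted by miR156 had none, which is near the 6.27% over all genes, and with the upper 50% of each list 1 of them had a region. Regions in 3 lists stood near 6 of the 10. The comparison lists had 2 of 18 photosynthesis genes (LHCB4.1 and LHCB6), 1 of 9 seed storage genes (CRB) and 1 of 10 housekeeping genes (UBQ5). These shares were 11.1%, 11.1% and 10.0%, against 6.27% of all tested genes. They lay near those of organ growth (9.38%), organ polarity (12.5%), cytokinin (12.5%) and gibberellin genes (13.3%). At LHCB4.1, LHCB6, CRB and UBQ5 another gene was nearer to the summit. That also held for CYCD3;2, KNOLLE, GID1A, YAB2, ARR5 and TPL, besides KRP7, PI, SHP2 and LUG.

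The list counts depended on the window and on the score. At 1000 bp 23 of the 43 genes kept a region, and at 500 bp 20 did. With only the upper 50% of each list 8 of the 43 did. TAR2 and YUC4 were the auxin genes among these 8, and none of the 4 KRP genes was. Counting genes that gained a region under this setting, auxin genes had 4 of 30 and cell cycle inhibitors 1 of 10, against 3.08% of all tested genes. With a window of 1000 bp auxin genes had 5 of 30 and cell cycle inhibitors 4 of 10.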

How the data were processed

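Chromatin immunoprecipitation with sequencing compared 3 JAG-GFP with 3 wild-type samples. Peaks were deposited as 3 lists with, per the file headers, start, end, width, summit and a score for each peak. The deposited score has no stated scale. The submitters' processing notes name CASAVA 1.8 and, as build, TAIR10. No peak caller, threshold or aligner is stated in the sources used here. Read depth is not known from the lists, so no detection limit is given and intervals cover counting error only.

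Peaks overlapping by at least 1 bp were merged, leaving out chromosome 1 past the last peak of replicate 3. The summit of a region was the median of the summits of its highest peak per list, the midpoint where 2 lists held it. Percentiles were taken in the whole list, with ties averaged. Genes and names came from the RefSeq table of TAIR10.1, none of whose coordinates are printed. Of 27444 protein-coding genes, 25680 were tested. All 272 list loci were found in it. Genome sequence was not used here, and sequence words were therefore not counted as planned. Positions were described with 95% Wilson intervals, with no test. Merging and placing were tested on simulated lists. Python 3.11.15, pandas 2.3.3, SciPy 1.17.1 and matplotlib 3.10.9 were used.

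Genes were named as the nearest of the 12 highest regions by mean percentile, the 3 highest of each pair of lists, all list genes with a region, the members at the edges of the rule, the 5 lowest, and genes with more than 1 region, of which those of the lists are described. HUB2, MIR167a and the other microRNA genes were chosen after their values were seen. The members and gene lists were chosen with earlier results of these data known.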

Additional observations from a re-analysis of the deposited data

Results flagged for a closer look

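On chromosome 1 past the last peak of the list of replicate 3, the lists of replicates 1 and 2 together hold 114 regions with a peak in both. They entered none of the counts above, because absence from replicate 3 cannot be read there, and they would otherwise have counted as regions of exactly 2 lists, bringing the total to 925.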

How the results depend on the processing

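Requiring an overlap of 50% of the shorter peak gave 822 regions, joining gaps of up to 300 bp gave 781 and keeping the end of chromosome 1 gave 925. Of the 811 regions, 795, 778 and 811 stayed in exactly 2 lists, and 33 joined a region of 3 lists across gaps. The summit of the higher-percentile peak, chosen after seeing the data, gave 33.9% of summits inside genes, 1606 genes and 43 list genes. With the upper 50% of each list there were 402 regions, a median mean percentile of 70.1, median distances of 17444.5 bp to the list without a peak and 50307.5 bp to a region in 3 lists, 26.9% of summits inside genes, 792 genes and 23 list genes, and 173 of the 811 stayed. Counting all annotated genes put 37.4% of summits inside genes. Windows of 1000 and 500 bp gave 888 and 651 genes and 23 and 20 list genes, and the nearest gene alone gave 778 and 32.

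With a list left out, regions in both other lists include those of all 3. They numbered 1076 to 1212, with median mean percentiles of 64.0 to 65.7, 27 to 28.2% of summits inside genes, 2011 to 2212 genes and 63 to 78 list genes. No paired analysis was possible because the lists carry comparisons, not samples of both groups. Depth per library is not known here, so a region without a peak in a list may have lain just under its threshold.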

Other observations

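Genes of other types were also placed. Of 303 microRNA genes, 11 (3.63%) had a region in exactly 2 lists within 3000 bp, and 24 (7.92%) had one in 3 lists. Besides MIR167a, they included MIR156d (AT5G10945) and MIR157d (AT1G48742), whose products target SPL genes. MIR156d had scores of 1.88 in replicate 1 and 1.94 in replicate 2, and MIR157d 1.94 in replicate 1 and 2.15 in replicate 3, each within 1000 bp. MIR399c, of the phosphate starvation response, had 1.93 in replicate 1 and 1.89 in replicate 2. Of 3897 pseudogenes 40 (1.03%) had such a region, against 6.27% of protein-coding genes. Long noncoding RNA genes had one in 213 of 3247 cases (6.56%). These genes were named after their values were seen.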
